A study of Mus musculus with 2 samples.

Results

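Wfdc17-intermediate neutrophils were the spleen neutrophils of tumour-bearing PyMT mice in which Wfdc17, a gene for a small secreted protein of the whey acidic protein family, took at least 0.5% and under 2% of the unique molecular identifiers (UMIs, 1 per captured RNA molecule) of a cell. The cells were thus chosen by measured values. A cell had to hold at least 10% of its UMIs in S100a8 plus S100a9, fewer than 2 UMIs of Cd79a plus Cd79b, fewer than 3 UMIs of Csf1r, Ccr2, Ace and Adgre4 together, and under 0.1% of UMIs in Mpo, Elane, Prtn3 and Ctsg together. These gates keep cells rich in neutrophil transcripts and leave out B cells, monocytes and promyelocytes. They passed 5261 of 9155 PyMT cells, of which 938 (17.8%, exact 95% interval 16.8 to 18.9) were intermediate. That was 10.2% of all PyMT cells, among 14646 cells in the series. They were set beside 3263 PyMT cells of the same gates with Wfdc17 under 0.5%, called low here, 1060 with Wfdc17 at 2% or more, called high, and 3565 wild-type cells of the same gates at any Wfdc17 share. The genes of the gates, and every difference between the 3 PyMT sets that follows the Wfdc17 split, are described without a test.

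The study profiled CD11b+ Gr1+ cells sorted from spleens by droplet single-cell RNA sequencing. One library came from 3 spleens, pooled, of tumour-bearing mice whose strain is labelled PYMT, a model that carries the polyoma virus middle T antigen, and the other from 5 spleens, pooled, of wild-type FVB/n animals. Ages are not given in the labels used here, and neither is the promoter that drives the transgene. With 1 library per condition, and all 3 Wfdc17 sets from the same library, no p-value was made, and intervals cover counting error only. Animal, library and condition cannot be told apart.

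Neutrophils mature through an ordered programme: cells still dividing switch on the genes of the secondary granules, such as cathelicidin (Camp) and lactoferrin (Ltf), under the transcription factor C/EBP epsilon, then stop dividing, shut these genes down and take up receptors for chemoattractants and for granulocyte colony-stimulating factor. The spleen becomes a site of neutrophil production in tumour-bearing mice. Neutrophils that restrain T cells are there called granulocytic myeloid-derived suppressor cells, and interleukin 6 and colony-stimulating factors acting through STAT3 are among the signals linked to them.

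The PyMT file held 9155 cells and 73435307 UMIs with a median of 7063 per cell, and the wild-type file held 5491 cells and 42542700 UMIs with a median of 5668. Depth differed between the sets: intermediate cells had a median of 6016.5 UMIs, low cells 10097, high cells 3373 and wild-type cells 5401. After each cell was thinned to 2500 UMIs the median number of genes was 664 in intermediate cells, 624 in low cells, 698 in high cells and 645 in wild-type cells. Cells resembling simulated doublets made up 10.0% of intermediate cells, 3.68% of low cells, 1.51% of high cells and 2.72% of wild-type cells. The libraries shared 72 barcode sequences, 7 of them in intermediate cells. Since S100a8 and S100a9 chose the cells, the neutrophil label was read from the other 10 of 12 neutrophil markers. All 10 had UMIs in intermediate cells, with a summed level of 84839 counts per 1000000 (CPM, the UMIs of a gene scaled to the total of the summed cells), against 132648 CPM in low, 47634 in high and 163761 in wild-type cells. Ly6g, the surface marker of neutrophils, stood at 941 CPM in intermediate cells, 861 CPM in low cells, 857 CPM in high cells and 1194 CPM in wild-type cells. Markers of other cell types summed to far less, the most in dendritic cells, whose 7 markers (Siglech at 0) gave 296 CPM in intermediate, 202 in low, 314 in high and 258 in wild-type cells. The 5 macrophage markers gave 11.9 CPM in intermediate, 3.10 in low, 34.2 in high and 5.34 in wild-type cells, and the 4 platelet markers 13.9 CPM in intermediate, 6.40 in low, 30.5 in high and 5.93 in wild-type cells. The 8 B cell markers gave 41.3 CPM in intermediate cells, 31.7 in low, 42.4 in high and 23.4 in wild-type cells. The 7 T cell markers gave 238 CPM in intermediate, 251 in low, 127 in high and 414 in wild-type cells. Cd3d alone made up most of each sum, at 223 CPM in intermediate, 244 in low, 121 in high and 407 in wild-type cells. It had at least 1 UMI in 59.7% of intermediate, 81.6% of low, 29.4% of high and 87.4% of wild-type cells. The 9 monocyte markers gave 85.6 CPM in intermediate, 48.3 in low, 112 in high and 51.2 in wild-type cells. The 7 erythroid markers gave 142 CPM in intermediate, 154 in low, 453 in high and 19.0 in wild-type cells. In intermediate cells 4 of 6 NK cell markers had UMIs (1.25 CPM in all, Klrb1c and Prf1 at 0), 2 of 4 eosinophil markers (6.08 CPM, Prg2 and Epx at 0), 2 of 4 basophil markers (2.18 CPM, Cpa3 and Fcer1a at 0) and 4 of 6 mammary epithelium markers (2.18 CPM, Wap and Csn2 at 0). The part of these marker levels and of the doublet-like cells in the results was not tested, apart from the values without doublet-like cells given further on.

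The Wfdc17 share of the gated PyMT cells was spread over the whole range. Among the 938 intermediate cells the lowest share was 0.5002%, the median 1.09% and the highest 1.99%, and the bands 0.5 to 0.8%, 0.8 to 1.3% and 1.3 to 2% held 275, 302 and 361 of them. Just outside the lower bound, the 65 cells at 0.45 to 0.5% had 649 CPM of Prok2 and 18916 CPM of Retnlg, and just inside it the 49 cells at 0.5 to 0.55% had 1029 and 20736 CPM. At the upper bound the 50 cells at 1.9 to 2% had 1632 CPM of Prok2 and 31973 CPM of Retnlg, and the 60 cells at 2 to 2.1% had 1649 and 37124 CPM. Il1b, for interleukin 1 beta, had 629.6 CPM just outside and 429 CPM just inside the lower bound, and 1688 CPM just inside and 1805 CPM just outside the upper one. Across the lower bound Il1b thus ran against its course over the whole range of Wfdc17. In wild-type spleen 1 of 3565 gated cells lay in the intermediate range (0.0281%, exact 95% interval 0.00071 to 0.156) and 1 lay above it, so that no wild-type set of the same Wfdc17 share could be formed.

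**Figure D1:**
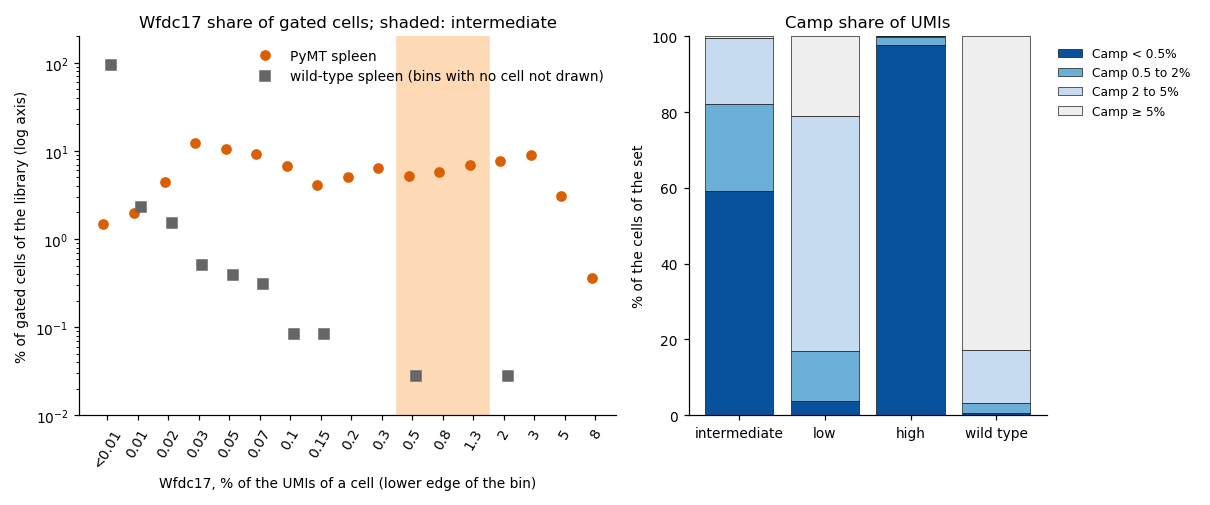
Left, percentage of gated cells of each library (log axis) in bins of the Wfdc17 share, with the intermediate range shaded; PyMT cells lie in every bin and all but 2 wild-type cells lie below the shaded range. Right, percentage of the cells of each set in 4 bands of the Camp share; 59.3% of intermediate cells had Camp under 0.5% of UMIs.

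Intermediate cells covered a wide range of granule transcripts. Camp, the gene of the secondary granule peptide cathelicidin, had a median share of 0.302% in intermediate cells, 3.92% in low cells, 0.151% in high cells and 7.19% in wild-type cells. Among intermediate cells Camp ran up to 6.06%. Camp was under 0.5% in 556 intermediate cells (59.3%), 0.5 to 2% in 215 (22.9%), 2 to 5% in 162 (17.3%) and at least 5% in 5. In the set of low cells 3.71% had Camp under 0.5%, and in the set of high cells 97.7% did. The share of intermediate cells with Camp under 0.5% was 29.8% in the lowest of the 3 Wfdc17 bands, 57.6% in the middle band and 83.1% in the highest. Depth and the doublet score moved with this division: median UMIs were 4387 at Camp under 0.5%, 7769 at 0.5 to 2% and 11307.5 at 2 to 5%, and doublet-like cells made up 2.70%, 10.2% and 33.3%. Their part in the division was not tested.

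The genes given as markers of these cells were all higher in intermediate than in low cells, and none was higher than in high cells. Prok2, which encodes the secreted prokineticin 2, stood at 1277 CPM in intermediate cells, 277 CPM in low cells, 1584 CPM in high cells and 19.5 CPM in wild-type cells. The log2 ratio of Prok2 was 2.21 (2.16 to 2.25) over low cells and -0.31 (-0.36 to -0.26) over high cells (exact 95% intervals). Per cell, the Prok2 share of UMIs had a median of 0.0885% and a highest value of 0.982% in intermediate cells, against 0.00868% and 0.651% in low cells, so single cells of the sets overlapped. Retnlg, for the secreted resistin-like gamma, had 28067 CPM in intermediate cells, 10643 CPM in low cells, 31689.7 CPM in high cells and 7481 CPM in wild-type cells, and its per-cell share in intermediate cells ran between 0.111% and 10.96% around a median of 3.01%. Il1f9, for interleukin 36 gamma, had 262 CPM in intermediate cells, 114 CPM in low cells, 311 CPM in high cells and 35.6 CPM in wild-type cells. Fabp5, a fatty acid carrier of the cytosol, reached 327 CPM in intermediate cells, 94.4 CPM in low cells, 482 CPM in high cells and 20.3 CPM in wild-type cells. Upp1, the uridine phosphorylase that breaks down uridine, reached 332 CPM in intermediate cells, 167 CPM in low cells, 402 CPM in high cells and 25.2 CPM in wild-type cells. Over low cells the log2 ratios of Retnlg, Il1f9, Fabp5 and Upp1 were 1.40, 1.20, 1.79 and 0.995, and over high cells they were -0.18, -0.25, -0.56 and -0.27. Wfdc17 itself, which set the groups, had 10615 CPM in intermediate cells, 1112 CPM in low cells, 36663 CPM in high cells and 31.8 CPM in wild-type cells. By level, these markers set intermediate cells apart from low cells and not from high cells.

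Across all genes intermediate cells lay mostly between the other sets. Among 6895 genes with at least 100 UMIs in intermediate and low cells together, 1020 (14.8%) were at least 1.5-fold higher and 1088 (15.8%) at least 1.5-fold lower in intermediate cells. When the total left out the 50 most abundant genes, which moved the median of all genes by -0.15, 725 were higher and 1594 lower. Against high cells 403 of 4110 genes (9.81%) were higher and 552 (13.4%) lower, and 645 and 331 with that total, which moved the median of all genes by 0.16. Of 3856 genes that were at least 1.5-fold apart between high and low cells, 3558 (92.3%) had a level in intermediate cells between those of the other sets. Since a mean over a mixture of cells also lies between, this count does not tell a mixture from cells that are each intermediate. The genes with the highest ratio over low cells were Steap4, a metalloreductase, St3gal6, a sialyltransferase, Prr5l, Marcks, a substrate of protein kinase C, and the chemokine gene Ccl6, with log2 ratios between 2.96 and 3.23. Srgn, for the granule proteoglycan serglycin, Tspan13, Sirpb1a and Sirpb1c followed, with log2 ratios of 2.85, 2.85, 2.79 and 2.88.

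**Figure D2:**
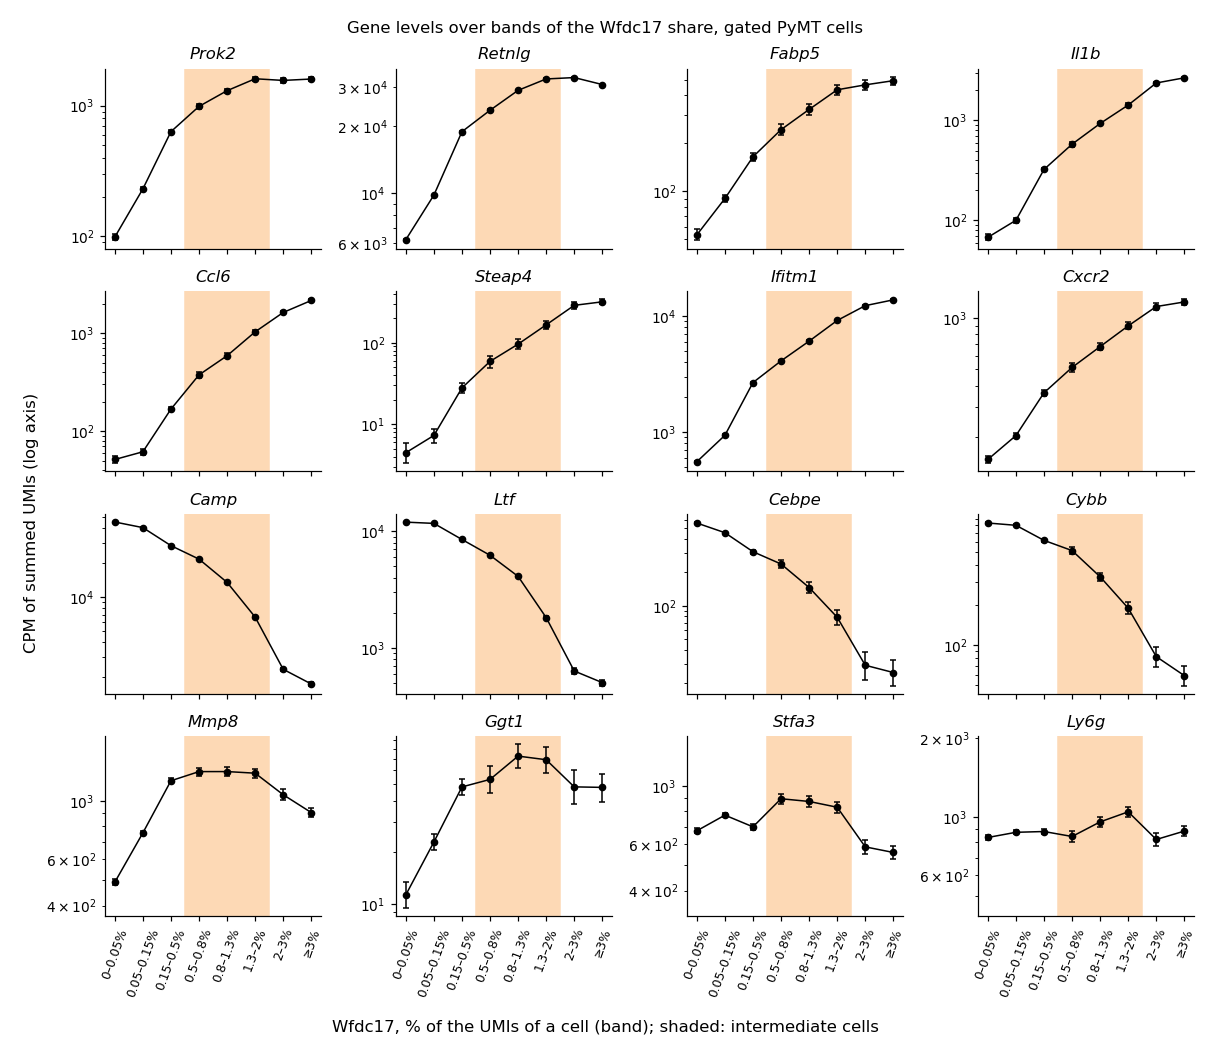
Level of 16 genes in CPM of summed UMIs (log axis) over 8 bands of the Wfdc17 share in gated PyMT cells, with exact Poisson 95% intervals; the 3 shaded bands hold the intermediate cells. Prok2 and Retnlg flatten from the 1.3 to 2% band on, Il1b, Ccl6 and Steap4 are highest in the band of at least 3%, Camp, Ltf, Cebpe and Cybb are lowest there, and Mmp8, Ggt1 and Stfa3 are highest within the shaded bands.

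The course over the Wfdc17 bands differed among these genes. From the lowest band (under 0.05%) to the highest (at least 3%), Prok2 stood at 98.7, 231, 633, 988, 1303, 1607, 1561 and 1600.1 CPM. Prok2 thus reached its plateau inside the intermediate range. Il1b stood at 67.9, 100.4, 323, 578, 931, 1422, 2363 and 2662 CPM, with its highest level in the top band. Camp stood at 45407, 40542, 28176, 21465, 13427, 6659, 2321 and 1725 CPM over the same bands. Median depth over the 8 bands was 10845, 10158, 8741, 7946, 6304.5, 4474, 3490.5 and 3310.5 UMIs, and doublet-like cells were most frequent at 0.5 to 0.8% (14.2%) and 0.8 to 1.3% (11.9%).

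Among secreted ligands, 14 of 19 genes with at least 50 UMIs were at least 1.5-fold higher in intermediate than in low cells and 3 were lower (median log2 ratio 1.20), where 15.6% of all genes at that minimum were higher and 17.6% lower. Against high cells 0 of 16 were higher and 7 lower (median -0.57), where 11.5% and 13.7% of all genes were. Il1b, for the inflammatory cytokine interleukin 1 beta, stood at 947 CPM in intermediate cells, 140.0 CPM in low cells, 2542 CPM in high cells and 21.0 CPM in wild-type cells, with log2 ratios of 2.76 (2.70 to 2.81) over low and -1.43 (-1.47 to -1.38) over high cells. Ccl6, a CC chemokine, stood at 641 CPM in intermediate cells, 82.4 CPM in low cells, 1943 CPM in high cells and 67.7 CPM in wild-type cells. Both genes were higher in intermediate than in low cells and lower than in high cells. In single intermediate cells Il1b ran between 0 and 1.70% of UMIs with a median of 0.0482%, against a median of 0.00686% in low and 0.235% in high cells. Of the interleukin 1 family and its receptors, 7 of 13 genes were higher than in low cells and 0 lower (median 1.18), among them Nlrp3, a sensor of the inflammasome, at 14.5 CPM against 3.33 in low and 37.2 in high cells. Thbs1, for the matrix protein thrombospondin 1, was among the lower ligands, at 1.09 CPM in intermediate, 3.86 in low, 0.496 in high and 160.3 CPM in wild-type cells.

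Receptors of mature neutrophils were at middle levels. Cxcr2, the receptor for CXC chemokines that draws neutrophils out of bone marrow, stood at 682 CPM in intermediate cells, 220.0 CPM in low cells, 1213 CPM in high cells and 124 CPM in wild-type cells. Csf3r, the receptor for granulocyte colony-stimulating factor, stood at 493 CPM in intermediate, 132 in low, 1014 in high and 96.6 in wild-type cells. Of 10 chemoattractant receptors 7 were higher than in low cells and 0 lower (median 0.82), and of 19 growth factor and cytokine receptors 12 were higher and 0 lower (median 0.66). Il13ra1 and Il4ra, the chains of the receptor for interleukins 4 and 13, were at 91.5 and 122 CPM in intermediate cells, 18.1 and 46.1 in low, 199.9 and 197 in high and 1.68 and 10.7 CPM in wild-type cells. Both chains were lowest in wild-type cells. Of the late maturation list 14 of 20 genes were higher than in low cells and 0 lower (median 1.05), and against high cells 0 were higher and 11 lower (median -0.62). Btg1, an anti-proliferative gene, and Fgl2, for a fibrinogen-like protein, are on that list. Btg1 had 1030.5 CPM in intermediate, 279 in low and 2324 in high cells, and Fgl2 had 89.2 CPM in intermediate, 15.7 in low and 224 in high cells.

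The genes that the study linked to suppressive cells, a list drawn from this kind of comparison and so no independent evidence of direction, were higher in intermediate than in low cells for 18 of 21 members and lower for 1 (median 1.77). Against high cells 1 of 20 was higher and 14 were lower (median -0.80). Cd84, a homophilic receptor of the SLAM family and part of the study's antibody panel, stood at 205 CPM in intermediate cells, 46.6 CPM in low cells, 399 CPM in high cells and 37.6 CPM in wild-type cells. Amica1, for the adhesion molecule JAML of the same panel, had 94.3 CPM in intermediate cells, 12.04 CPM in low cells, 237 CPM in high cells and 8.83 CPM in wild-type cells. Clec4d, a C-type lectin receptor, had 180.1 CPM in intermediate, 26.3 in low, 408 in high and 14.8 in wild-type cells. Arg2, for mitochondrial arginase, had 177 CPM in intermediate cells, 34.5 CPM in low cells, 312 CPM in high cells and 12.1 CPM in wild-type cells. All 4 were higher than in low cells and lower than in high cells. Of the classical suppressor effectors, a separate list, 2 of 8 were higher and 3 lower than in low cells, and Cybb, for the catalytic subunit of the phagocyte NADPH oxidase, was among the lower, at 356 CPM in intermediate cells, 770.2 CPM in low cells, 68.2 CPM in high cells and 1039 CPM in wild-type cells.

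Genes downstream of STAT3 and of the acute phase were higher in intermediate than in low cells for 13 of 18 members and lower for 2 (median 1.24), and lower than in high cells for 10 of 16 (median -0.83). Socs3, the feedback inhibitor of JAK-STAT signalling, had 252 CPM in intermediate cells, 41.6 CPM in low cells, 714 CPM in high cells and 3.57 CPM in wild-type cells, with a log2 ratio over low cells of 2.601 (2.497 to 2.70). Steap4 had 103 CPM in intermediate, 11.02 in low and 306 in high cells, against 1 UMI in the summed wild-type cells (0.0421 CPM). Igfbp6, for an insulin-like growth factor binding protein, had 195 CPM in intermediate cells, 32.5 CPM in low cells, 437 CPM in high cells and 0.294 CPM in wild-type cells. Saa3, a serum amyloid A gene, had 84.5 CPM in intermediate cells, 20.6 CPM in low cells, 155 CPM in high cells and 0.210 CPM in wild-type cells. Its level rested on few cells, since the top 1% of intermediate cells held 72.9% of its UMIs. Interferon response genes were higher than in low cells for 22 of 33 members and lower for 1 (median 0.67), and against high cells 3 of 27 were higher and 11 lower (median -0.41). Ifitm1, an interferon-induced membrane protein, had 6267 CPM in intermediate cells, 1201 CPM in low cells, 13194 CPM in high cells and 25.9 CPM in wild-type cells. Its family member Ifitm6 went the other way, with 6465 CPM in intermediate, 7409 in low and 2697 in high cells. Immediate-early genes were higher than in low cells for 17 of 20 members (median 1.10), and lower than in high cells for 13 of 18 (median -0.77). The phosphatase gene Dusp1 had 627 CPM in intermediate, 120.2 in low and 1478 in high cells, and the AP-1 gene Junb had 1375 CPM in intermediate, 376 in low and 2865 in high cells.

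The promoters of the gene that chose the cells and of 2 genes with large ratios over low cells are shown for their letters. Prok2 and Steap4 were lowest in wild-type and highest in high cells. Wfdc17 had the same order, which for the PyMT sets is fixed by the split. In GENCODE M21 on GRCm38 the protein-coding gene Wfdc17 spans chr11:83703991-83706268 on the plus strand. Each window is from RefSeq on GRCm38.p6 and covers 250 bases before to 50 bases after the annotated start, written 5′ to 3′ on the strand of the gene. The windows are Wfdc17 at chr11:83703806-83704105 (plus strand), Prok2 at chr6:99726343-99726642 (minus strand) and Steap4 at chr5:7960222-7960521 (plus strand). Capitals mark matches to 3 motifs searched on both strands, TTCNNNGAA for STAT factors, TGANTCA for AP-1 and TTGCNNAA for C/EBP factors.
Wfdc17: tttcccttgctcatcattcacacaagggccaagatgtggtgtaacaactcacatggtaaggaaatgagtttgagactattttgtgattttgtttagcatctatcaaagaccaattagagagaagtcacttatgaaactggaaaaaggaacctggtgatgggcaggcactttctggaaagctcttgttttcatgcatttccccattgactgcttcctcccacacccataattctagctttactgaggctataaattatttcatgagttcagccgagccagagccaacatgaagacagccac
Prok2: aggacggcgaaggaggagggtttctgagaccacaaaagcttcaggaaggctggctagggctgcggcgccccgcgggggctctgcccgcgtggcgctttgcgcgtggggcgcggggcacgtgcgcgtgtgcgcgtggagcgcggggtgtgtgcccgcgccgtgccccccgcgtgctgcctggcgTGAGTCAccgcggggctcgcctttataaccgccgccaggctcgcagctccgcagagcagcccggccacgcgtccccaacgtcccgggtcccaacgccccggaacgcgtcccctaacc
Steap4: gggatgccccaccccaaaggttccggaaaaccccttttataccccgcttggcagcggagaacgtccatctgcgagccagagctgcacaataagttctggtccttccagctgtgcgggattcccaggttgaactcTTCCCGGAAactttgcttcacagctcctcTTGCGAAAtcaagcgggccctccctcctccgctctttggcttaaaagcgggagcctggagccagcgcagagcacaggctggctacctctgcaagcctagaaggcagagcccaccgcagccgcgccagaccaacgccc
The Prok2 window held an AP-1 match, TGAGTCA, whose first base lay at -67 from the start. The Steap4 window held a STAT match, TTCCCGGAA, at -116 and a C/EBP match, TTGCGAAA, at -87. The matches did not overlap. The Wfdc17 window held none of these letters. Of 32851 RefSeq windows of this length, 8.3% held the STAT motif, 7.81% the AP-1 motif and 10.8% the C/EBP motif. A match is a description of the letters and says nothing of binding.

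Granule genes of the earlier stage ran opposite to the receptors. Of 14 secondary granule genes 8 were at least 1.5-fold lower and 1 higher than in low cells (median -0.68), while against high cells 9 of 12 were higher and 0 lower (median 1.69). Camp had 14378 CPM in intermediate cells, 39404 CPM in low cells, 1965 CPM in high cells and 71062 CPM in wild-type cells. Ltf, for lactoferrin, had 4208 CPM in intermediate cells, 11078 CPM in low cells, 554 CPM in high cells and 12144 CPM in wild-type cells. Ngp, for neutrophilic granule protein, had 22555 CPM in intermediate, 49694 in low, 3955 in high and 51672 in wild-type cells. Lcn2, for the iron-siderophore binding lipocalin 2, and Chil3, for a chitinase-like protein, had 11436 and 1383 CPM in intermediate, 19170.3 and 4304 in low and 4811 and 226 CPM in high cells. All of these were highest in low or wild-type cells and lowest in high cells. Cebpe, for C/EBP epsilon, had 160.0 CPM in intermediate cells, 458 CPM in low cells, 26.5 CPM in high cells and 595 CPM in wild-type cells, and Cebpb, for the related factor of mature and emergency granulopoiesis, ran the other way at 1479.7 CPM in intermediate cells, 509 CPM in low cells, 2562 CPM in high cells and 361 CPM in wild-type cells.

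Cell cycle genes were low in intermediate cells. Of 36 with at least 50 UMIs in the sets compared, 0 were higher and 34 lower than in low cells (median -1.82), and 7 of the 9 that reached the minimum against high cells were higher (median 0.69). Kif20a, a mitotic kinesin, had 0 UMIs in intermediate and high cells and 3.45 CPM in low cells. Birc5, for the mitotic protein survivin, had 9.04 CPM in intermediate cells, 35.4 CPM in low cells, 3.22 CPM in high cells and 51.9 CPM in wild-type cells. Stmn1, for a microtubule regulator of dividing cells, had 18.2 CPM in intermediate, 57.1 in low, 3.72 in high and 123 in wild-type cells. For metabolism the differences were smaller. Nuclear oxidative phosphorylation genes had a median log2 ratio of -0.33 over low cells (0 of 36 higher and 6 lower, a share near the 17.6% of all genes) and 0.20 over high cells, and glycolysis genes had -0.01 over low and 0.02 over high cells. Slc2a1, for a glucose transporter, was an exception within its list, at 36.2 CPM in intermediate, 11.5 in low and 59.0 in high cells. Lipid mediator enzymes split: Pla2g7, which degrades platelet-activating factor, had 265 CPM in intermediate, 49.1 in low and 548 in high cells, and Lta4h, which makes leukotriene B4, had 52.4 CPM in intermediate, 137 in low and 12.9 in high cells.

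**Figure D3:**
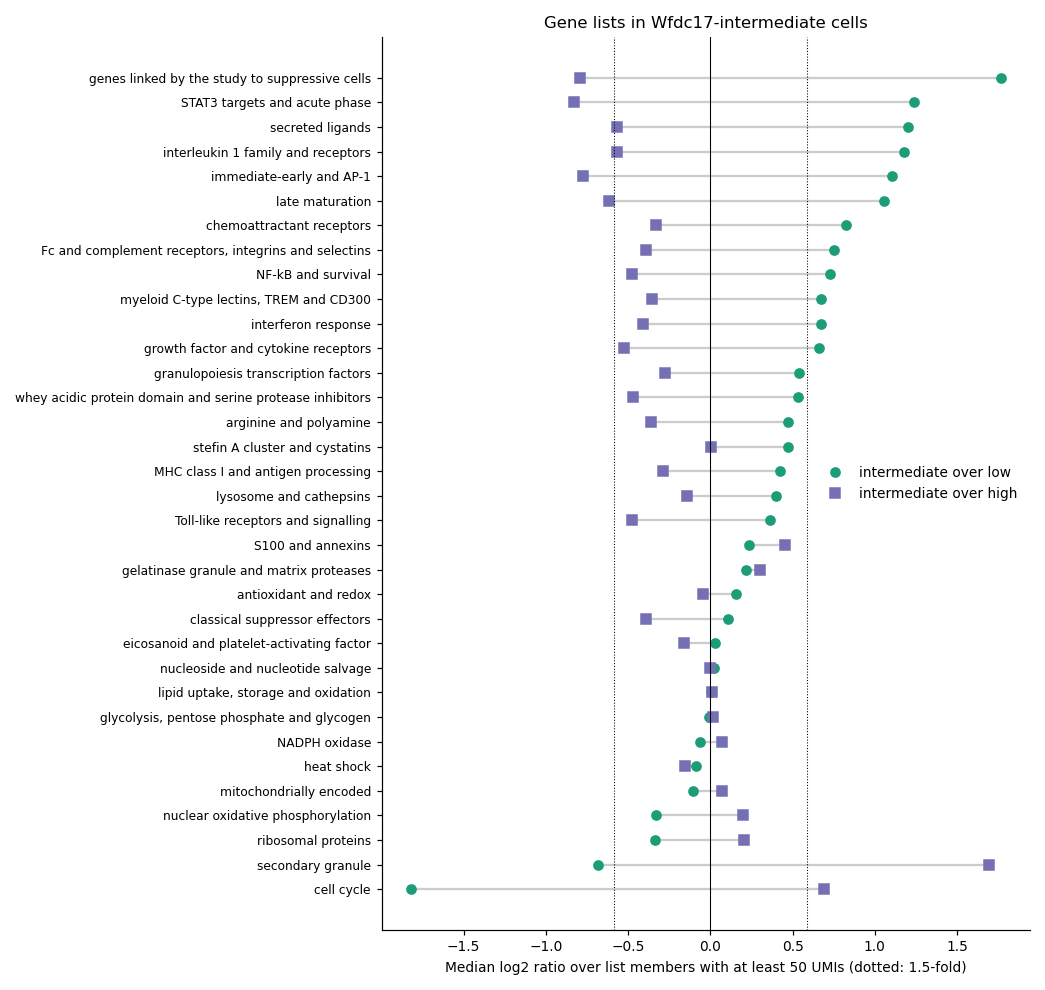
Median log2 ratio of 34 gene lists in intermediate over low cells (circles) and over high cells (squares), from members with at least 50 UMIs; dotted lines mark 1.5-fold. The lists of suppressive-linked, STAT3 and immediate-early genes lie right of 0 over low cells and left of 0 over high cells, and secondary granule and cell cycle genes lie the other way round.

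Few genes were highest in intermediate cells themselves. Of 7089 genes tested in the 3 PyMT sets, 22 (0.31%) were at least 1.5-fold above both low and high cells and 91 (1.28%) at least 1.5-fold below both, and the counting intervals lay off 0 for 7 and 14 of these. Ccl5, for a T cell and NK cell chemokine, led the first kind at 41.3 CPM in intermediate cells, 15.9 CPM in low cells, 6.69 CPM in high cells and 11.6 CPM in wild-type cells, with 87.9% of its UMIs in the top 1% of intermediate cells. With the gate on S100a8 plus S100a9 at 20% of UMIs the log2 ratio of Ccl5 over low cells was -1.01. Other genes were highest in intermediate cells by less than 1.5-fold over at least 1 of the sets. Mmp8, for neutrophil collagenase, had 1289 CPM in intermediate cells, 764 CPM in low cells, 965 CPM in high cells and 873 CPM in wild-type cells, with log2 ratios of 0.75 (0.72 to 0.79) over low and 0.42 (0.36 to 0.47) over high cells. Ggt1, for gamma-glutamyltransferase, had 64.4 CPM in intermediate cells, 24.6 CPM in low cells, 47.9 CPM in high cells and 1.304 CPM in wild-type cells, with log2 ratios of 1.39 and 0.43. Gpr27, an orphan receptor, had 55.5 CPM in intermediate, 37.4 in low and 29.0 in high cells. Stfa3, a stefin A cysteine protease inhibitor, had 868 CPM in intermediate, 723 in low and 569.8 in high cells. The stefin A genes are near-identical copies whose reads the counting could have divided, so their single values are uncertain. Genes lowest in intermediate cells were few and low, such as Nkg7, a granule gene of cytotoxic lymphocytes, at 1.72 CPM, against 9.38 in low and 4.71 in high cells. When separate portions of the UMIs assigned and measured the cells, the log2 ratio of Hbb-bt, a haemoglobin gene, over low cells turned to 1.06. Over all UMIs Hbb-bt was at 9.67 CPM in intermediate, 15.8 in low and 50.6 in high cells, beside the erythroid marker sums given above.

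The share of cells with at least 1 UMI, after thinning each cell to 2500 UMIs, was above the B cell background in intermediate cells for the 4 genes given here. For Prok2 the share was 73.9% of intermediate cells, 32.7% of low cells, 67.9% of high cells and 5.47% of wild-type cells, against 5.36% of 56 B cells. These were PyMT cells with at least 3 UMIs of Cd79a plus Cd79b and under 1% of UMIs in S100a8 plus S100a9, and should lack Prok2. Their median S100a8 plus S100a9 share was 0.943%, close to that cut, which leaves out any B cells with more of these transcripts. The background was not low for every gene: after thinning, Retnlg had a UMI in 87.5% and Camp in 89.3% of the B cells. The unthinned shares of Prok2 were 84.1% of intermediate, 58.0% of low, 72.2% of high and 9.17% of wild-type cells, against 7.14% of B cells. B cells had a median of 3539.5 UMIs and intermediate cells 6016.5. For Il1b the thinned share was 61.2% of intermediate, 22.5% of low, 90.1% of high and 3.25% of wild-type cells, against 16.1% of B cells (exact 95% interval 7.62 to 28.3). The B cells are from the PyMT library and so give no background for the wild-type shares. For Steap4 it was 24.0% of intermediate, 2.82% of low and 49.2% of high cells, with 0 of the wild-type cells and 0 of the B cells (upper limits of 0.103% and 6.38%). For Cxcr2 it was 82.0% of intermediate, 41.1% of low, 94.1% of high and 28.8% of wild-type cells, against 3.57% of B cells. For Prok2 the share and the CPM ordered intermediate and high cells in opposite ways, so no order between these sets is read from the share.

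Against wild-type cells of the same gates, 920 of 6920 genes (13.3%) were at least 1.5-fold higher and 2637 (38.1%) lower in intermediate cells, with a median of all genes at -0.35. Scaled by a trimmed mean of M-values, which moved the median of all genes by 0.32, 1534 were higher and 1679 lower. Camp was at 5% or more in 0.533% of intermediate cells and in 82.9% of wild-type cells, and the part of this in the comparison was not tested. The values within Camp bands given below leave that band out. They cover only 91 wild-type cells at 0.5 to 2% and 496 at 2 to 5%. Among the largest differences, Ifitm1 was 7.92 higher on the log2 scale, Igfbp6 9.37, Saa3 8.65, Stfa2, a stefin A gene, 6.19, Socs3 6.14 and Prok2 6.03. Wfdc17 was 8.38 higher, but its level in intermediate cells was set by the choice of cells. Stefin A genes as a list had a median log2 ratio of 4.68 (7 of 9 higher and 0 lower, where 13.2% of all genes with at least 50 UMIs were higher and 40.5% lower), with Stfa2 at 1246 CPM in intermediate, 732 in low, 1241 in high and 17.1 in wild-type cells. Stfa2 was thus far lower in wild-type cells than in any of the 3 PyMT sets.

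Within bands of the Camp share intermediate cells still differed from low cells, in fewer genes. The bands did not equalize Camp: its median was 0.175% in intermediate and 0.257% in low cells under 0.5%, 0.968% in intermediate and 1.34% in low cells at 0.5 to 2%, and 3.03% in intermediate and 3.85% in low cells at 2 to 5%. The part of this remaining difference in Camp was not tested. In the band of Camp under 0.5%, 7.45% of 2093 genes were higher and 4.49% lower in intermediate than in low cells. In the band of 0.5 to 2% these were 3.67% and 1.72% of 2506 genes, and in the band of 2 to 5% they were 7.9% and 7.36% of 5923 genes. Il1b was 1527 CPM in intermediate and 521 in low cells with Camp under 0.5%, 409 in intermediate and 128 in low cells at 0.5 to 2%, and 630.0 in intermediate and 145 in low cells at 2 to 5%. Its log2 ratio over low cells was 1.55 (1.40 to 1.71), 1.67 (1.49 to 1.85) and 2.12 (2.03 to 2.22) in the 3 bands. Steap4 was 170.3 CPM in intermediate and 58.8 in low cells with Camp under 0.5%, 53.7 in intermediate and 15.3 in low cells at 0.5 to 2%, and 57.9 in intermediate and 10.3 in low cells at 2 to 5%. Ifitm1 and Socs3 were also higher in intermediate than in low cells in every band, with log2 ratios of 0.74, 1.001 and 1.58 for Ifitm1 and 1.27, 0.96 and 2.09 for Socs3. Prok2 depended on the band: 1747 CPM in intermediate and 1582 in low cells with Camp under 0.5%, a log2 ratio of 0.14, but 596 and 218 CPM at 2 to 5%, a log2 ratio of 1.45. Retnlg was 36983 CPM in intermediate and 40212 in low cells with Camp under 0.5%, so that it was not higher there. The suppressive-linked genes were higher for 10 of 20, 9 of 20 and 12 of 21 members in the 3 bands (medians 0.59, 0.55 and 0.98), and the STAT3 genes for 8 of 16, 5 of 15 and 11 of 18 (medians 0.55, 0.37 and 0.71).

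Doublet-like cells were most frequent in the band of Camp 2 to 5%, at 33.3% of its intermediate cells. Without them 108 intermediate and 1935 low cells remained there, and 8.92% of 5697 genes were higher and 9.94% lower in intermediate than in low cells. Of the lists, 10 of 17 STAT3 genes were higher and 0 lower (median 0.80), 11 of 21 suppressive-linked genes higher and 0 lower (median 0.95) and 0 of 36 cell cycle genes higher and 23 lower (median -0.74). Il1b then stood at 546 CPM in intermediate and 128 in low cells, Prok2 at 677 and 215 CPM and Steap4 at 51.0 and 8.92 CPM. The log2 ratios were 2.097, 1.65 and 2.52 without the doublet-like cells and 2.12, 1.45 and 2.49 with them. The lowest doublet score left out was 0.88, a cut set by the assumed rate. Before removal the median score in this band was 0.84 in intermediate and 0.54 in low cells. Kept intermediate cells can thus lie close under the cut, and whether doublets remain among them was not tested. In the other bands, with doublet-like cells kept, only 4 cell cycle genes reached 50 UMIs. Of these 1 was higher and 1 lower than in low cells at Camp under 0.5% (median -0.03), and 0 and 0 at 0.5 to 2% (median 0.03).

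Against high cells at Camp under 0.5%, 3.59% of 3177 genes were higher and 4.34% lower in intermediate cells. Secondary granule genes were still higher for 6 of 12 members and lower for 0 (median 0.61), and late maturation genes had a median of -0.24 (0 of 20 higher, 5 lower). Il1b was 1527 CPM in intermediate and 2633 in high cells, and Cxcr2 was 949 CPM in intermediate and 1238 in high cells. Prok2 and Retnlg were slightly higher in intermediate than in high cells in this band, with log2 ratios of 0.16 (0.101 to 0.21) and 0.23 (0.22 to 0.24), and Mmp8 was higher by 0.58 (0.52 to 0.65). Mmp8 was not highest in intermediate cells within this band, since low cells of the same band had 1722 CPM, against 1396 in intermediate and 933 in high cells.

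Against wild-type cells within the Camp bands, the genes parted. Median Camp was 0.968% in intermediate and 1.25% in wild-type cells at 0.5 to 2%, and 3.03% in intermediate and 3.97% in wild-type cells at 2 to 5%. At 0.5 to 2%, 15% of 1392 genes were higher and 14.4% lower in intermediate cells, and at 2 to 5% 8.96% of 2579 were higher and 15.4% lower. Ifitm1 was 5503 CPM in intermediate and 71.1 in wild-type cells at Camp 0.5 to 2%, and 3199.6 CPM in intermediate and 125 in wild-type cells at 2 to 5%. Stfa2 was 1132 CPM in intermediate and 34.1 in wild-type cells at 0.5 to 2%, and 734 CPM in intermediate and 86.0 in wild-type cells at 2 to 5%. Prok2 was 1362 CPM in intermediate and 105 in wild-type cells at 0.5 to 2%, and 596 CPM in intermediate and 57.9 in wild-type cells at 2 to 5%. These 3 genes were higher in intermediate cells in both bands. Retnlg went the other way, at 31837 CPM in intermediate and 42952 in wild-type cells at 0.5 to 2% and 13269 CPM in intermediate and 22731 in wild-type cells at 2 to 5%, although over all gated cells it was higher in intermediate cells. Mmp8 was 832 CPM in intermediate and 1667 in wild-type cells at 2 to 5%. Low cells of that band were below wild-type cells too, at 9218 CPM of Retnlg and 739 CPM of Mmp8. At 2 to 5% the STAT3 genes were higher for 12 of 15 members and lower for 0 (median 1.35), the interferon genes for 13 of 16 and 0 (median 1.00) and the suppressive-linked genes for 15 of 20 and 0 (median 1.14), while immediate-early genes were higher for 3 and lower for 2 of 16 (median -0.04). These list values are for the band of 2 to 5% only. Doublet-like cells made up 33.3% of intermediate and 3.43% of wild-type cells there, and their part was not tested. Cd84 was 142 CPM in intermediate and 199 in wild-type cells at 0.5 to 2%, but 132 and 83.5 CPM at 2 to 5%. Ccl6 changed order likewise, at 384 and 503 CPM, then 323 and 210 CPM. Arg2 was higher in intermediate cells in both bands, at 147 and 68.2 CPM, then 80.9 and 36.8 CPM. The wild-type band of Camp under 0.5% held 23 cells and was not compared.

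**Figure D4:**
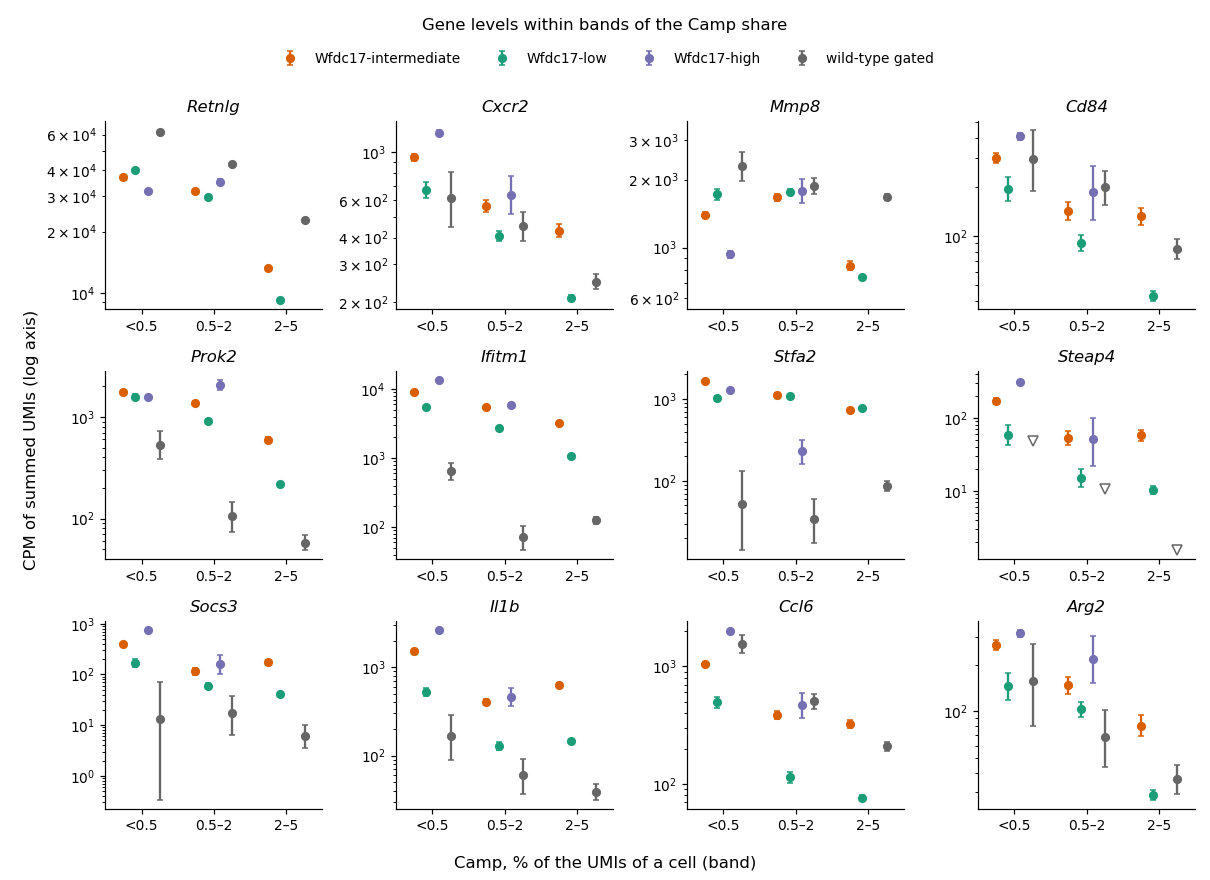
Level of 12 genes in CPM of summed UMIs (log axis) in intermediate, low, high and wild-type cells within 3 bands of the Camp share, with exact Poisson 95% intervals; open triangles mark upper limits where no UMI was counted. Ifitm1, Stfa2 and Prok2 are higher in every PyMT set than in wild-type cells of the same band, and Retnlg is highest in wild-type cells in every band, of which the lowest holds 23 wild-type cells.

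Within the intermediate cells, those with Camp under 0.5% were set against those with Camp at 2 to 5%. Of 2581 genes 23.6% were at least 1.5-fold higher and 10.1% lower in the Camp-poor cells. Retnlg was 36983 CPM at Camp under 0.5%, 31837 at 0.5 to 2% and 13269 at 2 to 5%, with a log2 ratio of 1.48 (1.46 to 1.499) between the outer bands. Prok2 was 1747, 1362 and 596 CPM. Both were lower in each band of more Camp, and so was Wfdc17, at 12919, 9744 and 8305 CPM within the range the choice of cells allows. Il1b was 1527, 409 and 630.0 CPM, and Steap4 was 170.3, 53.7 and 57.9 CPM. These 2 genes were highest in the Camp-poor cells, and Il1b was lowest in the middle band. For Steap4 the intervals of the middle band (43.3 to 65.9 CPM) and of 2 to 5% (47.7 to 69.6 CPM) overlapped. Ltf, Chil3 and Cebpe ran with Camp, at 649, 302 and 42.6 CPM in the band under 0.5% and 9012, 3266 and 352 CPM in the band of 2 to 5%. Of the suppressive-linked genes 19 of 20 were higher in the Camp-poor cells and 0 lower (median 1.26), of the stefin A genes 8 of 9 and 0 (median 0.85), and of the secondary granule genes 1 of 12 was higher and 9 lower (median -1.40). The outer bands also differed in depth and in doublet-like cells, as given above, and in markers of other cells. Dendritic markers summed to 465 CPM in the Camp-poor cells and 175 CPM at 2 to 5%, platelet markers to 26.9 and 5.63 CPM, macrophage markers to 19.4 and 8.19 CPM and erythroid markers to 143 and 76.3 CPM, while myeloid progenitor markers were at 41.4 and 89.1 CPM. Their part in the comparison was not tested.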

How the data were processed

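Sorted spleen cells were run on the 10x Genomics Chromium platform with version 2 3′ chemistry, at 48488 reads per cell on average per the labels' protocols. Cell Ranger 2.1.0 and the mm10 build are named in the submitters' processing notes. The deposited files hold whole-number UMI counts per gene and cell for 27998 gene rows, and which filter on cells the authors applied is not stated in the labels used here (the lowest PyMT cell held 2502 UMIs and the lowest wild-type cell 2752). Samples were grouped by title. Every column of per-sample values was used.

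From these counts, UMIs were summed over the cells of each set and scaled to the total of the sum (CPM) with exact Poisson 95% intervals, and log2 ratios have exact conditional intervals. For shares the intervals are Clopper-Pearson's, and all of them reflect counting error alone. In ratios a sum of 0 was replaced by 3 counts, and no ratio was formed when both sums were at or under that floor. A gene was counted as higher or lower at 1.5-fold with at least 100 UMIs in the sets compared, and list members needed 50. Genes of the gates stayed out of the counts. No test was made, since each condition is 1 library. No doublets were removed in the main values. One alternative drops the cells nearest to simulated doublets, at an assumed 0.8% per 1000 cells.

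Named genes are those with the highest or lowest interval bound nearest 0 in each comparison (12 and 12 over low and over high cells, 8 and 8 over wild-type cells, 12 highest and 8 lowest in intermediate cells), the given markers, the sorting panel and up to 4 members of each list. Ribosomal, mitochondrially encoded and unnamed genes and receptor segments stayed out. The gates, members and gene lists were chosen with earlier results of these data known. The text gives a choice of these genes. Work was done in Python 3.11.15 (numpy 2.4.6, scipy 1.17.1, pandas 2.3.3, scikit-learn 1.9.0, matplotlib 3.10.9) and R 4.3.3 with edgeR 4.0.16, used for the trimmed mean of M-values only. The calculation was tested on simulated data.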

Additional observations from a re-analysis of the deposited data

How the results depend on the processing

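Of the gene lists and the genes named here (50 to 54 per comparison), those at least 1.5-fold apart over all gated cells kept their direction under other scalings, equal weight per cell, thinning, a minimum of 500 genes per cell with mitochondrial UMIs up to 5%, and removal of doublet-like cells, while counts of genes moved with the minimum and the cells used. The cause was not tested except where fewer genes or cells entered. Many named genes left their counting interval, though not their direction. Over low cells 41 lay outside it and 13 within with equal weight per cell, and 40 and 14 with thinning. Without doublet-like cells 42 lay outside and 12 within. Over high cells these were 43 and 7, 41 and 9, and 19 and 31. Against wild-type cells a trimmed mean of M-values gave 1534 higher and 1679 lower genes and the median of ratios 1503 and 1705, against 920 and 2637. A total without the 50 most abundant genes gave 645 and 331 over high cells. At a minimum of 500 UMIs there were 565 and 390 genes over low cells, 111 and 225 over high cells, 545 and 916 over wild-type cells, 1 highest and 2 lowest in intermediate cells. At 1 UMI these were 2219 and 2102, 1889 and 1703, 1778 and 4529, 279 and 278. At 50 UMIs 635 genes were higher than in high cells, 75 were highest and 196 lowest. With each cell thinned to 2500 UMIs, 593 were lower than in low cells, 174 higher and 304 lower than in high cells, 1339 lower than in wild-type cells and 39 lowest. Equal weight per cell gave 37 highest and 142 lowest. When the UMIs were split at random and one part assigned the cells and the other was measured, 711 were lower than in low cells and 49 lowest, and the log2 ratio of Hbb-bt over low cells was 1.06. A Wfdc17 share without S100a8 and S100a9 gave 12 highest. Cells whose Wfdc17 interval lay inside the bounds gave 36 highest and a share of 12.95% of gated PyMT cells, and leaving out doublet-like cells gave 16.78%.

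Camp at 0.5 to 5% of UMIs left 501 higher and 622 lower genes over low cells and 299 and 603 over wild-type cells, and it turned the sign of the log2 ratios over wild-type cells of Birc5 (0.14), Chil3 (0.53), Gpr27 (-0.19), Lcn2 (0.049), Ngp (0.043), Retnlg (-0.21) and the medians of the secondary granule (0.046), immediate-early (-0.15), NF-kB (-0.21) and Fc and complement receptor (-0.13) lists. The log2 ratio of Ccl5 turned in several settings: over low, high and wild-type cells it was -1.48, -2.87 and -0.93 with the Wfdc17 share without S100a8 and S100a9, over low and wild-type cells -1.01 and -0.60 at an S100 gate of 20%, -1.04 and -0.53 in cells whose interval lay inside the bounds, and -1.36 and -1.90 at Camp of 0.5 to 5%. Among cells with Camp at 2 to 5% it was -1.12 over low cells, and 0.45 (-0.72 to 1.43) without doublet-like cells, a setting chosen after seeing the data. With fewer than 2 UMIs over 10 mitosis and replication genes, also chosen after seeing the data, the log2 ratio of Birc5 was 0.081 over low and 0.074 over wild-type cells. Birc5 is itself among those 10 genes, so its ratio follows from the filter and is not read as a result. In this setting Stmn1 was -0.22 and the cell cycle median -0.078 over high cells, and the filter bears on that median too. Fewer than 3 UMIs over the whole cell cycle list left 20 intermediate cells and gave no value, and Camp at 0.5 to 5% left 24 high cells, too few to compare. No paired analysis was possible because each condition is 1 library. Depth limits genes under the minimum in high cells, the shallowest set.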
